A study of Arabidopsis thaliana with 6 samples.

Results

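The NAC genes of Arabidopsis thaliana encode one of the largest families of plant transcription factors. The members described here were the 79 genes of the array annotation whose title held the phrase "no apical meristem", out of 22746 probe sets that were not controls. The phrase stood in 87 titles, and 8 of them were removed because their loci were on a list of 10 senescence, stress and auxin NAC genes that was set aside. The rule reads gene titles and locus codes. RNA from leaves of 2-week-old seedlings was hybridised to Affymetrix ATH1 arrays, which measure about one gene per probe set, with 3 arrays of the mutant essp3 and 3 arrays of wild type. The wild type carried the reporter ProβCG:GUS, in which the promoter of the seed storage protein β-conglycinin drives the enzyme GUS. By its allele name the mutation lies in BRAHMA (BRM), an ATPase that moves nucleosomes as part of SWI/SNF complexes, and the labels named its allele in 2 ways, brm5 and brm-6, so it is called essp3 here. Plants of both groups were grown on MS agar with 1.5% sucrose under 16 h of light at 22 °C and 8 h of dark at 20 °C after 3 days at 4 °C, and the labels called the samples of a group biological replicates.

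NAC proteins share a DNA-binding NAM domain at the amino terminus and differ in the rest of the protein. Some act as switches of cell identity, such as the VND proteins in water-conducting xylem, the CUC proteins at organ boundaries and SMB in the root cap. Others respond to stress or leaf ageing, and a subset is tethered to membranes and released by cleavage. The CUC genes are known to need SWI/SNF ATPases for normal activity in the shoot.

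The Affymetrix software called each probe set Present, Marginal or Absent on each array, and 12863 to 13761 probe sets were Present per array. Signals of each array had been scaled to a mean of 1000. The arrays correlated at 0.961 to 0.978 within a genotype and at 0.899 to 0.936 between genotypes, on log2 signals of tested probe sets. The array names placed mutant and wild-type arrays in different runs, so run and genotype cannot be told apart for any difference given here. A control probe set for 25S ribosomal RNA read 371 to 483 on the mutant arrays and 4149 to 7797 on the wild-type arrays (linear signals). The ratio of 3′ to 5′ signal of the ubiquitin control, a sign of RNA quality, was 1.47 to 1.71 in the mutant and 0.832 to 1.42 in wild type, without overlap, while the ratios of the actin and GAPDH controls overlapped. The part of these controls in the results was not tested. The probe set of BRM itself differed by a log2 change of 0.25 ± 0.16 (SE, adjusted p = 0.278), and since the labels do not describe the lesion, this level does not check them. All 5 shoot meristem markers and all 3 seed markers were never Present, as were 4 of 6 root markers and 3 of 4 flower markers. The root marker PYK10 was Present on all 6 arrays, with means of 2444 ± 169 in the mutant and 2986 ± 279 in wild type (SD). Its log2 change was -0.29 ± 0.12 (SE, adjusted p = 0.103). The root marker COBL9 was Present on 1 array and the flower marker PI on 5. The 3 measured leaf markers were Present throughout, with summed signals of 129298 to 139962 in the mutant and 110072 to 133772 in wild type. Of these, GLDP1, a subunit of the photorespiratory glycine decarboxylase, rose by a log2 change of 1.15 ± 0.17 (SE, adjusted p = 0.000259). RBCS1A (0.12 ± 0.10, adjusted p = 0.412) and RCA (-0.12 ± 0.14, adjusted p = 0.567) had no call. Of 3 phloem markers, the proton pump AHA3 fell by 0.41 ± 0.11 on the log2 scale (SE, adjusted p = 0.0164). The others had no call, with log2 changes of 0.18 ± 0.20 for APL (adjusted p = 0.525) and 0.01 ± 0.12 for SUC2 (adjusted p = 0.944). In whole leaves, fewer cells of a type and less RNA per cell cannot be told apart.

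Most NAC members were quiet in these leaves. Of the 79 members, 17 were called Present on all 6 arrays, 8 on 3 to 5 arrays, 13 on 1 or 2 arrays and 41 on none. Among all probe sets 50.5% were Present on all 6 arrays. The share never Present was 51.9%, against 32.4% of all probe sets. A member was tested where it was Present on at least 3 of the 6 arrays, which left 25 members, or 31.6% against 59.9% of all probe sets. None of these 25 entered the test through one genotype with no Present call in the other.

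**Figure D1:**
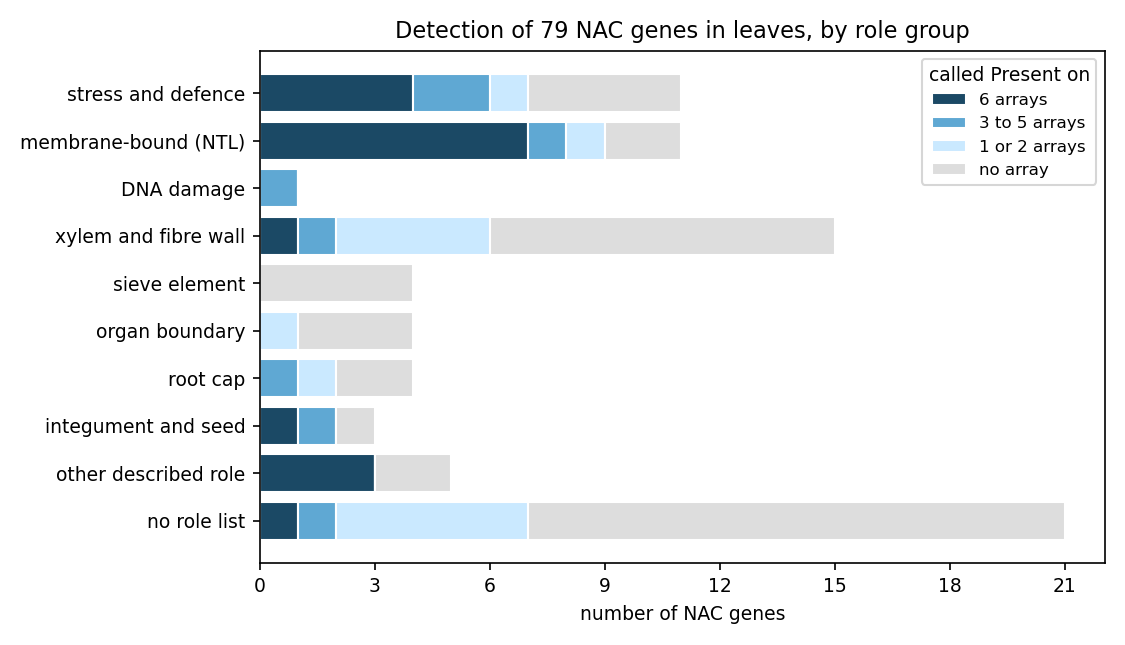
Number of NAC members (horizontal axis) in each role group, stacked by the number of the 6 arrays on which a member was called Present. All 4 phloem members were Present on no array, whereas 9 of the 11 membrane-tethered members were Present on at least 1.

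Among the 25 tested members, 2 rose and 6 fell in essp3 at an adjusted p under 0.05. The genes that rose were ANAC102 and ANAC032, both of the ATAF subgroup of stress-related NAC genes. The genes that fell were ANAC047, ANAC041, NTM2, SOG1, ANAC014 and VNI2. The called share of 32.0% was near the 28.4% called among all 13626 tested probe sets, so the count is not a result about the family. By direction, 8.0% of tested members rose, against 14.4% of all tested probe sets, and 24.0% fell, against 13.9%. The median log2 change was -0.14 over the tested members and -0.01 over all tested probe sets, and the median size of the change was 0.38 and 0.31. A change of at least 2-fold with a call was found for 3 members, ANAC047, ANAC041 and SOG1, which is 12.0% against 6.94%. The arrays of the 2 genotypes did not overlap for 13 tested members, or 52.0% against 42.7% of all tested probe sets. These were the 8 called members and 5 without a call. The mutant was higher for 5 of the 25 tested members and lower for 8 of the 25, against 21.1% and 21.6% of all tested probe sets. Among the 41 members never Present, the arrays did not overlap for 6 (14.6% against 11.8% of all probe sets never Present). The mutant was higher for 2 of the 41 (4.88%) and lower for 4 (9.76%), against 7.84% and 3.94% of all probe sets never Present.

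**Figure D2:**
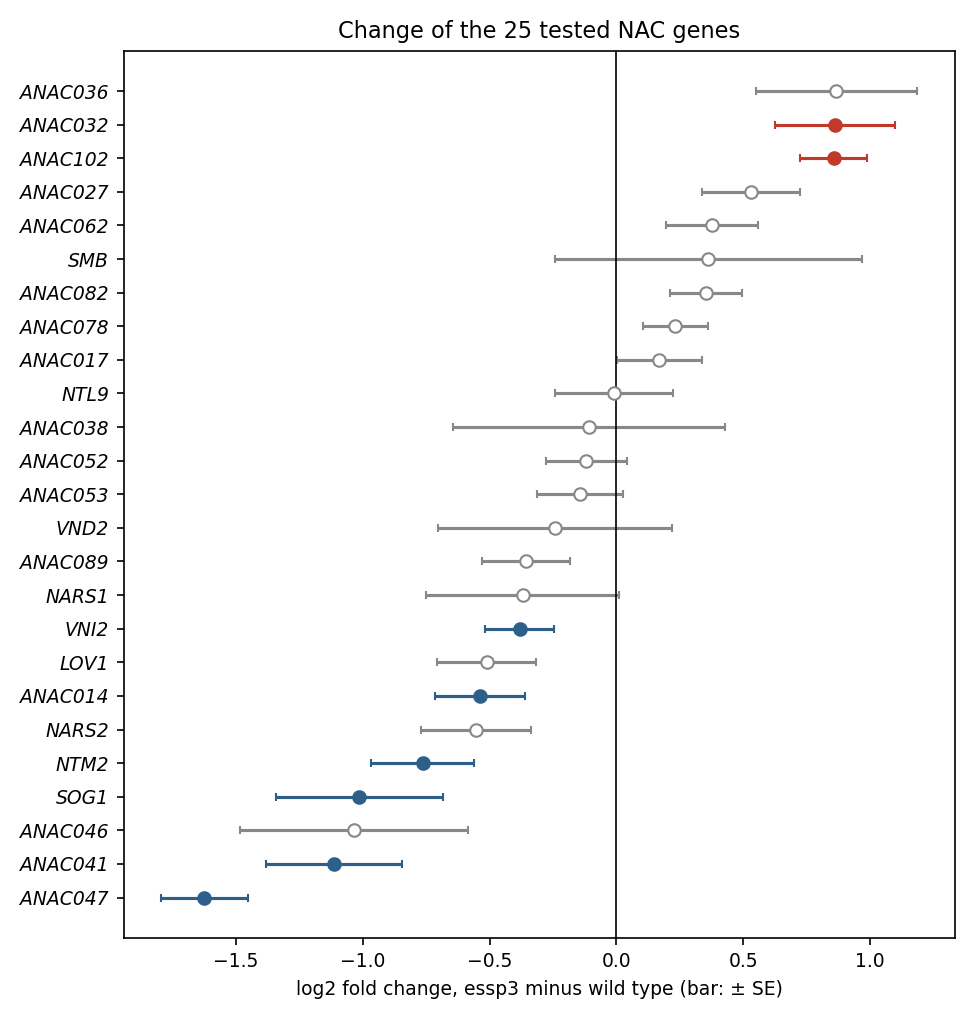
Log2 change (essp3 minus wild type, with its SE) of the 25 tested NAC members, ordered by their log2 change, with filled points for an adjusted p under 0.05 and open points for the others. The changes run from -1.63 for ANAC047 to 0.87 for ANAC036, which missed the threshold.

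The stress and leaf ageing members held both genes that rose and the member with the largest fall. This group had 11 members, of which 7 were Present on at least 1 array and 6 were tested, with 2 higher, 2 lower and a median log2 change of -0.09. Over all tested probe sets 14.4% were called higher and 13.9% lower, and the group was not tested against them. ANAC047 (AT3G04070), known as SPEEDY HYPONASTIC GROWTH for its part in the upward bending of petioles on waterlogging, read 258, 207 and 219 on the mutant arrays and 652, 698 and 754 on the wild-type arrays. Every wild-type array lay far above every mutant array. The means were 228 ± 26.4 and 701 ± 51.1 (SD, n = 3 each), and the gene fell 3.08-fold, by 1.63 ± 0.17 on the log2 scale (SE, adjusted p = 1.74e-05).

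ANAC102 (AT5G63790), known for a role in seed germination under low oxygen, read 2982, 3105 and 3059 in the mutant and 1914, 1439 and 1728 in wild type. The mutant arrays lay close together and all above wild type. The means were 3049 ± 62.4 and 1694 ± 239 (SD, n = 3 each), with a log2 change of 0.86 ± 0.13 (SE, adjusted p = 0.000337), a 1.81-fold rise. The calls of ANAC047 and ANAC102 held under all 16 alternative settings that were run.

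ANAC032 (AT1G77450), a relative of ANAC102 linked to stress responses and senescence, read 251, 278 and 281 in the mutant and 146, 127 and 177 in wild type. Here too the groups did not overlap, with the mutant higher. The means were 270 ± 16.4 and 150 ± 25.4 (SD, n = 3 each), and the gene rose 1.82-fold, a log2 change of 0.86 ± 0.24 (SE, adjusted p = 0.0147). Leaving out 1 array gave adjusted p from 0.0105 to 0.0582, above the threshold without essp3 replicate 2 (0.0582) and without wild-type replicate 2 (0.0549), and fitting all probe sets without a filter gave 0.0528.

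ANAC041 (AT2G33480) read 229, 115 and 136 on the mutant arrays and 370, 309 and 317 on the wild-type arrays. Mutant replicate 1 was the highest of its group yet stayed under all wild-type arrays. The means were 160 ± 61.0 and 332 ± 33.3 (SD, n = 3 each), and the gene fell 2.16-fold, by 1.11 ± 0.27 on the log2 scale (SE, adjusted p = 0.00683). An unmoderated test on linear signals gave an adjusted p of 0.0724, and the other alternatives kept the call.

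ANAC036 (AT2G17040), which dwarfs plants when overexpressed, read 230, 309 and 243 in the mutant and 119, 99.5 and 240 in wild type. Wild-type replicate 3 reached into the range of the mutant, and the gene was Present on 3 mutant arrays and 1 wild-type array. Its log2 change of 0.87 ± 0.32 (SE, n = 3 each) missed the threshold with an adjusted p of 0.0554. Without wild-type replicate 3 the log2 change was 1.25 with an adjusted p of 0.00533, within a leave-one-out range of 0.00533 to 0.197. Down-weighting of deviating arrays gave 0.00809 and centring each array on its median gave 0.0496.

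ANAC046 (AT3G04060), known to promote chlorophyll breakdown in ageing leaves, read 37.8, 75.2 and 101 in the mutant and 129, 127 and 151 in wild type. All wild-type arrays were above all mutant arrays, although only 1 mutant and 2 wild-type arrays were called Present. The log2 change was -1.04 ± 0.45 (SE, adjusted p = 0.102), which missed the threshold. ANAC046 and ANAC047 are neighbours on chromosome 3 in the TAIR10.1 gene order, with log2 changes of -1.04 and -1.63. ANAC052 and ANAC053 are also neighbours with both genes tested, and their log2 changes were -0.12 and -0.14, without a call. Of the other stress members, ANAC087 was Present on 1 mutant array, and ANAC061, ANAC090, ANAC096 and ANAC103 were never Present. Signals of the untested members of the group ran from 3.66 to 138.

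**Figure D3:**
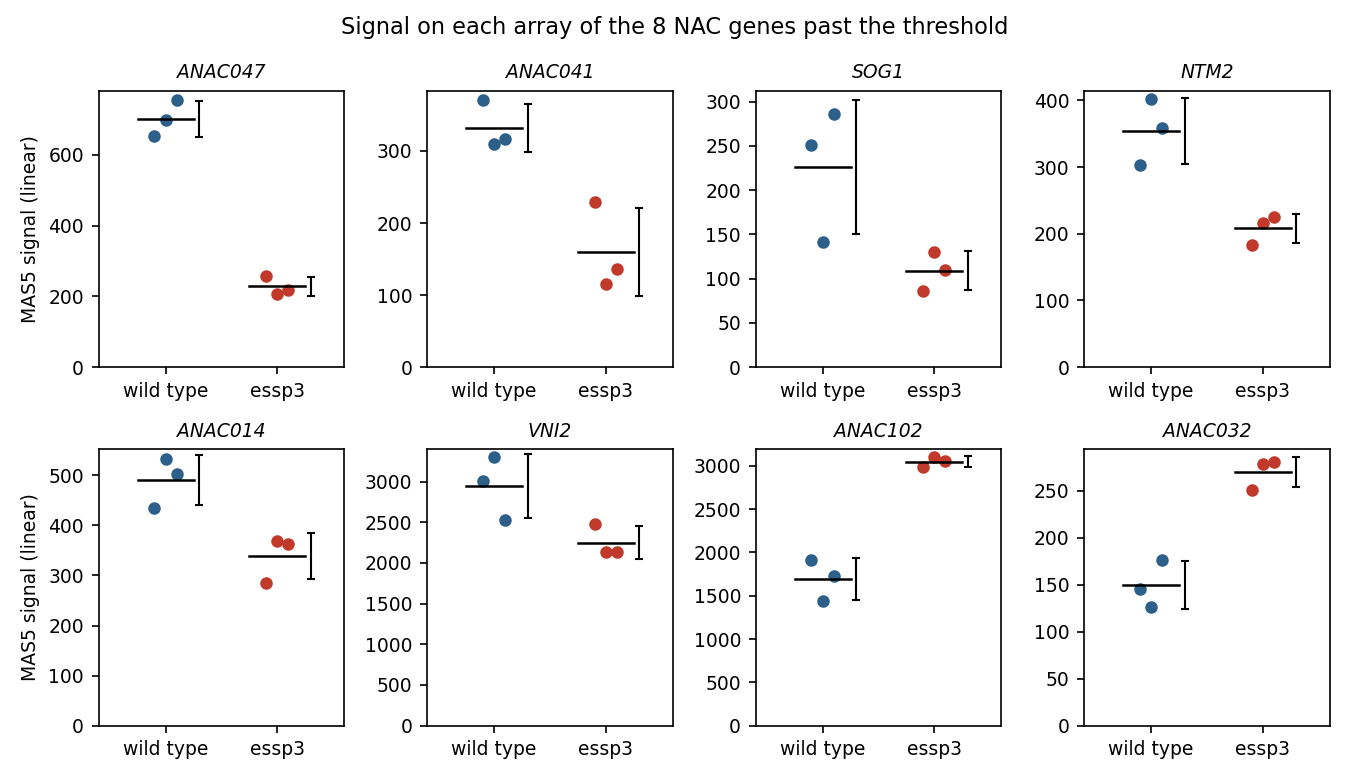
Deposited signal (linear axis from 0) of the 8 called NAC members on each array, with points for arrays, lines for the mean and bars for the SD of 3 arrays of each genotype. No mutant array overlaps a wild-type array for any of the 8, and for ANAC047 the arrays read 207 to 258 in the mutant and 652 to 754 in wild type.

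The membrane-tethered members were the group with the most measurable genes. Of 11 members, 9 were Present on at least 1 array and 8 were tested, of which 2 fell, none rose and the median log2 change was -0.08, a count near the 28.4% called over all tested probe sets. NTM2 (AT4G01550), whose protein links salt and auxin signals in germinating seeds, read 184, 216 and 225 in the mutant and 303, 402 and 359 in wild type. The wild-type arrays were all higher. The means were 208 ± 21.7 and 355 ± 49.4 (SD, n = 3 each), and the gene fell 1.70-fold, by 0.76 ± 0.20 on the log2 scale (SE, adjusted p = 0.0128). The adjusted p without 1 array ran from 0.0127 to 0.0671, the latter without wild-type replicate 2, and the unmoderated test gave 0.0611.

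ANAC014 (AT1G33060), another NAC protein with a predicted membrane anchor, read 285, 369 and 364 in the mutant and 436, 533 and 503 in wild type. The groups did not overlap, and the lowest value was that of mutant replicate 1. The means were 339 ± 46.7 and 490 ± 49.6 (SD, n = 3 each), and the gene fell by 0.54 ± 0.18 on the log2 scale (SE, adjusted p = 0.0360). The adjusted p without 1 array ran from 0.0338 to 0.134 and was above the threshold without essp3 replicate 1 (0.134), essp3 replicate 2 (0.0580), wild-type replicate 2 (0.127) and wild-type replicate 3 (0.0762). It was 0.0724 without a filter and 0.0871 in the unmoderated test.

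The other 6 tested membrane members gave no call. ANAC062, linked to cold, pathogens and endoplasmic reticulum stress, had a log2 change of 0.38 ± 0.18 (SE, adjusted p = 0.138). ANAC089, linked to endoplasmic reticulum stress and sugar sensing, had one of -0.36 ± 0.17 (adjusted p = 0.142). ANAC078 and ANAC053 take part in the response to proteasome stress, and their log2 changes were 0.23 ± 0.13 (adjusted p = 0.197) and -0.14 ± 0.17 (adjusted p = 0.566). The arrays of ANAC078 did not overlap, with means of 1673 ± 108 in the mutant and 1424 ± 101 in wild type (SD, n = 3 each).

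ANAC017 (log2 change 0.17 ± 0.17 SE, adjusted p = 0.487) sends a signal from stressed mitochondria to the nucleus. NTL9 (AT4G35580), a repressor that binds calmodulin, read 253, 226 and 325 in the mutant and 250, 345 and 219 in wild type. Its groups overlapped throughout, and it had the smallest change of the tested members at -0.01 ± 0.23 (SE, adjusted p = 0.984). Among the untested, ANAC013 was Present on 1 mutant array, and ANAC016 and NTL8 were never Present.

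SOG1 (AT1G25580), the transcription factor that directs the response to DNA damage in plants, read 86.4, 131 and 109 in the mutant and 251, 141 and 286 in wild type. The groups did not overlap, but wild-type replicate 2 lay close to the highest mutant array. It was Present on 1 mutant and 3 wild-type arrays. The means were 109 ± 22.1 and 226 ± 75.7 (SD, n = 3 each), and the gene fell by 1.01 ± 0.33 on the log2 scale (SE, adjusted p = 0.0333). Leaving out 1 array gave adjusted p from 0.0134 to 0.129, above the threshold without essp3 replicates 1 (0.0994) or 3 (0.0623) and without wild-type replicates 1 (0.110) or 3 (0.129). It was 0.0951 without a filter, 0.0719 with array weights and 0.172 in the unmoderated test.

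Of the 15 members linked to xylem and thickened cell walls, 6 were Present on at least 1 array and 2 were tested. VNI2 (AT5G13180), a repressor that binds the xylem switch VND7 and also acts in leaf ageing, read 2479, 2133 and 2140 in the mutant and 3007, 3301 and 2523 in wild type. The lowest wild-type array lay just above the highest mutant array. The means were 2251 ± 198 and 2944 ± 393 (SD, n = 3 each), and the gene fell by 0.38 ± 0.13 on the log2 scale (SE, adjusted p = 0.0473), the called change nearest the threshold.

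That call of VNI2 was lost under several settings. The adjusted p without 1 array ran from 0.0189 to 0.187, and it was above the threshold without essp3 replicates 2 (0.155) or 3 (0.119) and without wild-type replicates 1 (0.0918) or 2 (0.187). It was 0.0545 without a filter, 0.111 without the intensity trend, 0.0574 after median centring and 0.157 in the unmoderated test.

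VND2 had a log2 change of -0.24 ± 0.46 (SE, adjusted p = 0.734) on means of 77.3 ± 22.6 and 88.9 ± 9.46 (SD, n = 3 each). VND4, VND7, VND3 and SND3 were Present on 1 or 2 arrays. VND1, VND5, VND6, NST1, NST2, SND1, SND2, XND1 and ANAC075 were never Present, so the master switches of vessels and fibres had mostly bounds in these leaves.

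**Figure D4:**
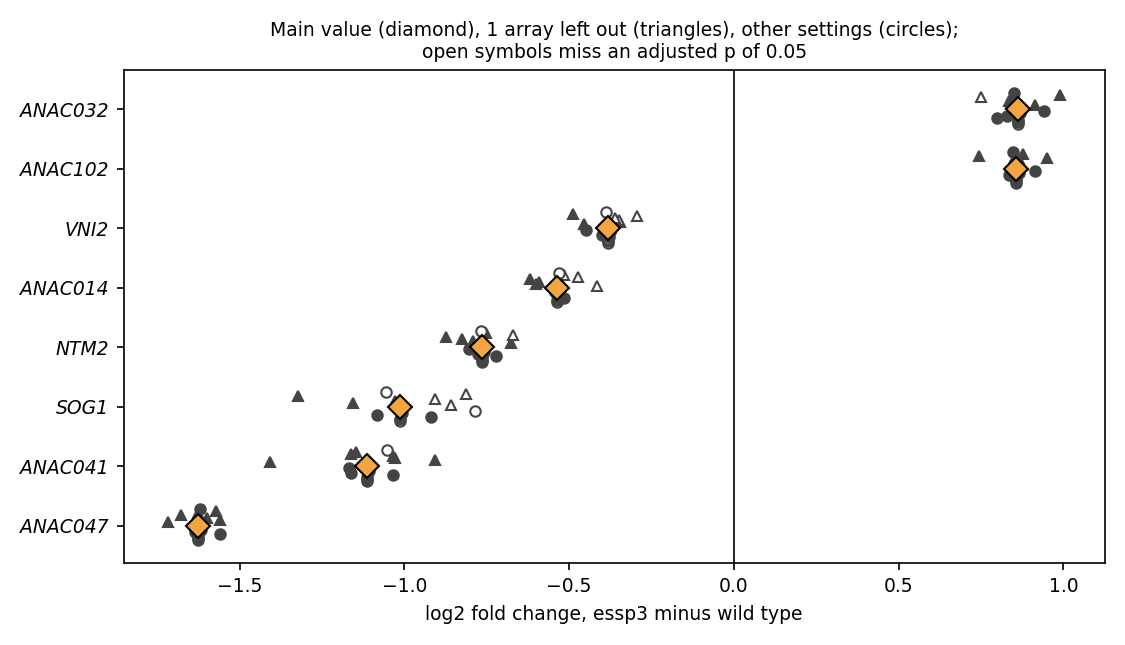
Log2 change (essp3 minus wild type) of the 8 called NAC members in the comparison as designed (diamonds), with 1 array left out (triangles) and under the other settings (circles), open where the adjusted p missed 0.05. All points of a gene lie on one side of 0, and ANAC047 and ANAC102 have no open point.

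The 3 seed and integument members gave no call. NARS2 (AT1G52880), which acts with NARS1 in the seed coat precursor, read 320, 403 and 231 in the mutant and 522, 386 and 466 in wild type. Mutant replicate 2 overlapped the wild-type arrays, and the log2 change of -0.55 ± 0.22 (SE, n = 3 each) missed the threshold with an adjusted p of 0.0722. Without that array it was 0.0373, at the low end of a leave-one-out range up to 0.255. NARS1 (AT3G15510) had a log2 change of -0.37 ± 0.38 (adjusted p = 0.508), and ANAC025 was never Present.

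Of 5 members with other known roles, 3 were tested and none was called. LOV1 (AT2G02450), a floral repressor that prolongs the vegetative phase, read 323, 426 and 407 in the mutant and 472, 482 and 714 in wild type. The wild-type arrays were all higher, and the log2 change was -0.51 ± 0.20 (SE, adjusted p = 0.0670). Without wild-type replicate 1 the adjusted p was 0.0469, within a leave-one-out range of 0.0469 to 0.245.

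ANAC082 (AT5G09330), a mediator of the response to disturbed ribosome production, read 896, 792 and 824 in the mutant and 605, 662 and 699 in wild type. The mutant arrays were all higher, with a log2 change of 0.35 ± 0.14 (SE, adjusted p = 0.0803). ANAC052 (AT3G10490), a partner of the histone demethylase JMJ14, read 531, 419 and 508 in the mutant and 550, 511 and 514 in wild type. Its groups overlapped, with a log2 change of -0.12 ± 0.16 (SE, adjusted p = 0.620). It was the only tested member on a probe set whose name marks probes that may match related transcripts. ANAC058 and ANAC071 were never Present.

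The root cap, phloem and boundary regulators were at or near the limit of detection. SMB, a root cap gene, was Present on 3 mutant arrays and 1 wild-type array, with a log2 change of 0.36 ± 0.61 (SE, adjusted p = 0.694). FEZ was Present on 1 mutant array, and BRN1 and BRN2 were never Present. The phloem members ANAC020, ANAC045, ANAC057 and ANAC086 were never Present. Among the boundary members, CUC2, CUC3 and ANAC080 were never Present, and ANAC100 was Present on 2 wild-type arrays. The arrays of ANAC100 and of FEZ overlapped between the genotypes.

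Of the 21 members in no role list, 7 were Present on at least 1 array and 2 were tested. ANAC027 (AT1G64105) read 446, 421 and 384 in the mutant and 258, 364 and 254 in wild type. The mutant arrays were all higher, but the log2 change of 0.53 ± 0.19 (SE, n = 3 each) missed the threshold with an adjusted p of 0.0553. Without wild-type replicate 2 the adjusted p was 0.0278, within a leave-one-out range of 0.0278 to 0.153.

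ANAC038 (AT2G24430) read 48.6, 58.7 and 138 in the mutant and 60.1, 92.2 and 88.5 in wild type, so the groups overlapped, and its log2 change was -0.11 ± 0.54 (SE, adjusted p = 0.906). ANAC077 (AT5G04400), Present on 1 array of each genotype and untested, read 125, 136 and 129 in the mutant and 105, 108 and 98.5 in wild type. All its mutant arrays lay above wild type. ANAC003, ANAC005, ANAC028 and ANAC095 were Present on 1 or 2 arrays. The remaining 14, never Present, were ANAC001, ANAC004, ANAC006, ANAC023, ANAC024, ANAC048, ANAC065, ANAC074, ANAC084, ANAC093, ANAC094, ANAC097, ANAC099 and AT3G56520.

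The NAC genes that were set aside gave other values in the same comparison. Of the 9 found in the table, 8 were tested, of which 2 rose and 5 fell, with a median log2 change of -1.56 and a range of -3.87 to 0.73. Over all tested probe sets 14.4% were called higher and 13.9% lower. The difference between them and the members was not tested.

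In the authors' deposited table, which gives an unadjusted p from an unpaired test on linear signals, 10 of the 25 tested members had a p under 0.05, or 40.0% against 32.8% of all tested probe sets. In the authors' deposited table, 6 of the 8 called members were past that p, and SOG1 (0.0614) and VNI2 (0.0525) were not.

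Genes known to act downstream of or beside these NAC proteins were then examined as 5 lists. ANAC017 and ANAC013 switch on a set of genes when mitochondria are disturbed. Of 15 such genes, 14 were tested, of which 6 passed the threshold as higher and none as lower. Of these 6, 3 entered the test through the mutant arrays alone, which favours a higher mutant signal. For that reason neither the count of 6 nor its share of 42.9% is read against the 28.4% of all tested probe sets. Among the 9 genes of the list Present on all 6 arrays, in a fit restricted to such probe sets, 3 rose (NDA1, DIC2 and DIC1) and 1 fell (AT12CYS-2), of which DIC1 and AT12CYS-2 are named after their values were seen. Of all 11478 probe sets in that fit, 1775 rose and 1746 fell, and the list was not tested against them. NDA1, an alternative NADH dehydrogenase, read 2099, 1695 and 1479 in the mutant and 807, 386 and 406 in wild type. All mutant arrays lay above all wild-type arrays, and the gene rose by a log2 change of 1.79 ± 0.24 (SE, adjusted p = 0.000112).

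Of the other 3 genes of that list with the smallest adjusted p, UGT74E2, a glycosyltransferase of indole-3-butyric acid, had means of 278 ± 43.3 and 26.6 ± 18.0 (SD, n = 3 each) with no Present call in wild type. With the lowest Present signal of each wild-type array as a floor, the ratio of essp3 to wild type was 8.35 for UGT74E2. HSP23.5, a mitochondrial small heat shock protein, was also without a Present call in wild type, and its ratio was 4.61. This floor is not a strict bound, since signals well above it can lack a Present call. AT2G41730 of the same list read 342, 337 and 397 in wild type with no Present call there. No adjusted p is given for either, since both met the detection filter through the mutant arrays alone. DIC2, a mitochondrial dicarboxylate carrier, rose by a log2 change of 1.26 ± 0.26 (SE, adjusted p = 0.00289), with an adjusted p of 0.0974 in the unmoderated test. ANAC017 itself had no call and ANAC013 was not tested.

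Of 15 genes known to be switched on after DNA damage, a response that SOG1 directs, 9 were tested, of which 2 rose and none fell, or 22.2% called against 28.4% of all tested probe sets, with a median log2 change of 0.26. TSO2, a small subunit of ribonucleotide reductase, had means of 5983 ± 156 in the mutant and 1496 ± 69.3 in wild type (SD, n = 3 each). The groups were far apart, and the gene rose by a log2 change of 2.00 ± 0.11 (SE, adjusted p = 6.52e-08) while SOG1 fell.

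PARP2, a poly(ADP-ribose) polymerase, rose by a log2 change of 0.96 ± 0.32 (SE, adjusted p = 0.0373). The adjusted p of PARP2 without 1 array ran from 0.0144 to 0.147, and only leaving out wild-type replicate 2 kept it under the threshold. It was 0.0574, 0.147 and 0.0832 without essp3 replicates 1, 2 and 3, and 0.0964 and 0.0928 without wild-type replicates 1 and 3. It was 0.105 without a filter, 0.0515 after quantile normalization and 0.137 in the unmoderated test. SYN2 (log2 change 2.16 ± 1.16, adjusted p = 0.186) and BARD1 (0.38 ± 0.26, adjusted p = 0.311) gave no call. Wild-type replicate 2 read 2.19 for SYN2, and without that array its log2 change was 0.40.

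Of 35 genes of secondary wall formation, the programme that the VND and NST proteins switch on, 12 were never Present and 19 were tested. Among these 2 rose and none fell, or 10.5% called, below the 28.4% of all tested probe sets, with a median log2 change of 0.26. XCP1, a cysteine protease of xylem vessels, had means of 743 ± 71.9 in the mutant and 401 ± 50.9 in wild type (SD, n = 3 each), and it rose by a log2 change of 0.89 ± 0.16 (SE, adjusted p = 0.00111). XCP1 was also 1 of the 5 xylem markers, whose summed signal was 3176 to 3322 in the mutant and 2436 to 2701 in wild type. Among the others, XCP2 had a log2 change of 0.27 ± 0.12 (SE, adjusted p = 0.120). CESA7 went the other way, at -0.36 ± 0.26 (SE, adjusted p = 0.330). CESA8 had no Present call in wild type and CESA4 was never Present. The part of these markers in the result was not tested.

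LAC11, a laccase of lignin formation, rose by a log2 change of 0.68 ± 0.20 (SE, adjusted p = 0.0214). The adjusted p of LAC11 without 1 array ran from 0.0101 to 0.0882, above the threshold without essp3 replicates 1 (0.0516) or 2 (0.0882) and without wild-type replicates 1 (0.0792) or 2 (0.0506). It was 0.0537 without a filter and 0.0753 in the unmoderated test. LAC4 (log2 change -0.49 ± 0.19, adjusted p = 0.0681) and RNS3 (0.51 ± 0.22, adjusted p = 0.102) missed the threshold.

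Of 24 genes that act with the CUC proteins at boundaries, 23 were on the array, 12 were never Present and 8 were tested, of which 2 rose and none fell, a share near the 28.4% called over all tested probe sets. The never Present genes included STM, KNAT1, LAS and LOF1, which mark meristems or boundaries. TCP10 and TCP3, leaf regulators known to hold back CUC genes, were the genes that rose. TCP10 had means of 742 ± 141 and 476 ± 10.0 (SD, n = 3 each) and a log2 change of 0.62 ± 0.17 (SE, adjusted p = 0.0139). The adjusted p of TCP10 without 1 array ran from 0.00710 to 0.0647 and missed the threshold without essp3 replicates 1 (0.0647) or 3 (0.0557), and it was 0.116 in the unmoderated test.

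TCP3 had means of 1174 ± 72.0 and 828 ± 122 (SD, n = 3 each) and a log2 change of 0.51 ± 0.15 (SE, adjusted p = 0.0200). The adjusted p of TCP3 without 1 array ran from 0.0176 to 0.0989 and missed the threshold without essp3 replicate 2 (0.0875) or wild-type replicate 2 (0.0989). It was 0.0503 without the intensity trend and 0.0744 in the unmoderated test. TCP4 (0.24 ± 0.17, adjusted p = 0.320) and TCP2 (0.17 ± 0.13, adjusted p = 0.386) of the same class had no call on the log2 scale. Nor had TCP24 of the same list, which did not rise (-0.05 ± 0.15, adjusted p = 0.835).

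Of 9 genes of the response to unfolded proteins, in which ANAC062, ANAC089 and ANAC103 take part, 6 were tested, of which 1 fell and none rose, or 16.7% called against 28.4% of all tested probe sets, with a median log2 change of -0.04. PDIL1-1, a protein disulfide isomerase, had means of 1973 ± 93.0 in the mutant and 2702 ± 186 in wild type (SD, n = 3 each). It fell by 0.45 ± 0.12 on the log2 scale (SE, adjusted p = 0.0130), with a leave-one-out range of 0.0105 to 0.0538, the latter without wild-type replicate 2. BIP1, a chaperone whose probe set may match related transcripts, had a log2 change of 0.27 ± 0.14 (adjusted p = 0.178, and 0.0280 without essp3 replicate 3, within 0.0280 to 0.460 over the arrays left out). The regulator bZIP60 (-0.28 ± 0.22, adjusted p = 0.357) and the chaperone CNX1 (0.14 ± 0.12, adjusted p = 0.415) had no call.

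**Figure D5:**
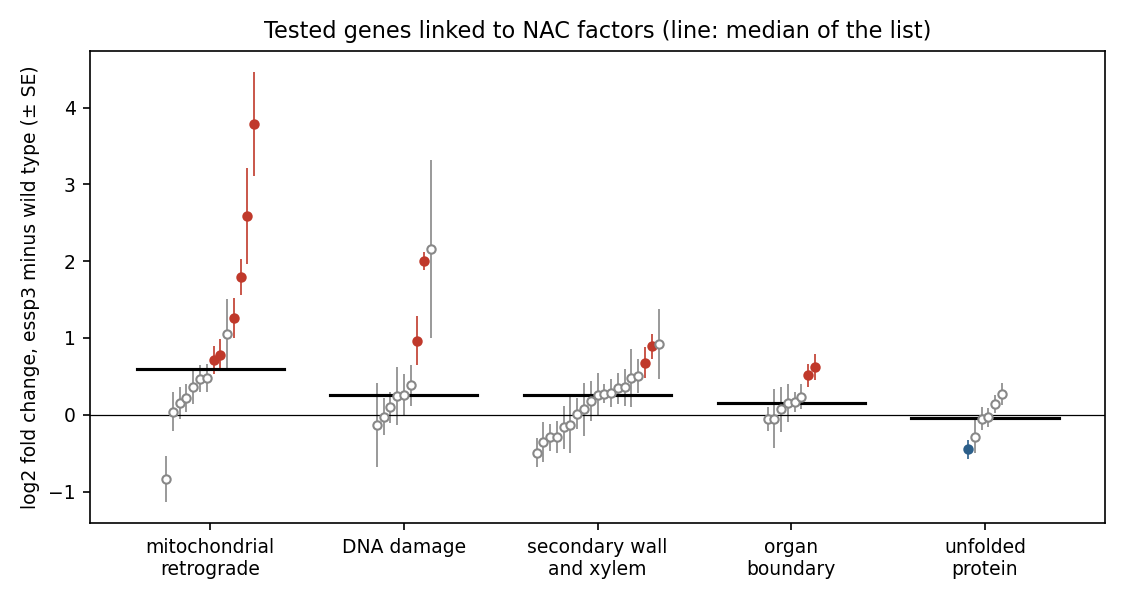
Log2 change (essp3 minus wild type, with its SE) of each tested gene in the 5 lists linked to NAC proteins, with a line at each list's median and filled points for an adjusted p under 0.05. The filled points and the median of the mitochondrial list include 3 genes that entered the test through the mutant arrays alone. NDA1 of the mitochondrial list lies at 1.79 and TSO2 of the DNA damage list at 2.00, and the median of the list of the response to unfolded proteins is -0.04.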

How the data were processed

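RNA of 3 essp3 and 3 wild-type leaf samples was measured on ATH1 arrays. The authors deposited MAS5 signal intensity per probe set with Present, Marginal or Absent detection calls, scaled to a common mean per array, per the file headers and the submitters' processing notes. The deposited table also gives the authors' ratio of group means and the authors' p-value. For the annotation release and other MAS5 settings, the sources used here give nothing. The series value table held the same values (largest difference 0).

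From the deposited intensities, log2 signals were computed here without an offset. Probe sets Present on at least 3 of 6 arrays were fitted with limma 3.58.1 in R 4.3.3 (lmFit, eBayes with an intensity trend, two-sided). Benjamini-Hochberg adjustment ran over all 13626 tested probe sets, with a threshold of 0.05, and the 62 control probe sets were left out. Every adjusted p given is from this fit or a named alternative. The median SE was 0.18. For a single value, an exact permutation test of 3 against 3 cannot go below p = 0.1, so none was used. Python 3.11.15 and pandas 2.3.3 prepared the tables, and the fit was tested on simulated data.

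Locus codes of all 79 members matched the RefSeq gene table (TAIR10.1), used for names and neighbours. Members given with every array were those called, the 6 uncalled members with the smallest adjusted p, the 3 with the smallest change, and untested members whose groups did not overlap and that were Present at least once. From each linked list the 4 tested genes with the smallest adjusted p were named, and other tested members were given by their log2 change. STM, KNAT1, LAS and LOF1 were named after their detection calls were seen, and TCP24 after its values were seen. The members, role groups and lists were chosen with earlier results of these data known. The design text calls the replicates of each group independent, without saying which plants or cultures they came from.

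Alternatives were no detection filter, Present on all 6 arrays, no trend, an offset of 16, quantile normalization, median centring, array weights, a replicate block, an unmoderated test on linear signals, the series value table, and each array left out.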

Additional observations from a re-analysis of the deposited data

How the results depend on the processing

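For the 8 called members, 98 of 126 values under the alternatives kept the direction and the call, 28 missed the threshold and 0 changed direction; the cause was not tested. The number of members that rose, 2 in the comparison as designed, was 1 to 3 with an array left out (1 without essp3 replicate 2, 3 without wild-type replicate 3) and 3 with array weights or median centring. The number that fell, 6 as designed, was 3 to 5 with an array left out (3 without wild-type replicate 2) and 1 in the unmoderated test. Over all probe sets 1966 rose and 1899 fell, against 900 and 794 in the unmoderated test, and 1341 to 1901 and 1338 to 1737 with an array left out. The linked lists held 13 called genes, 6 in the unmoderated test and 9 to 13 with an array left out. Of the 13, 3 mitochondrial genes entered the test through the mutant arrays alone. Counts of linked genes are therefore not read against those of all probe sets. Among genes without a call, log2 changes crossed 0 with an array left out for NARS1 (-0.62 to 0.028), ANAC053 (-0.27 to 0.023), SMB (-0.31 to 0.79), VND2 (-0.43 to 0.0096), ANAC038 (-0.56 to 0.19, and 0.025 in the unmoderated test), NTL9 (-0.16 to 0.18) and bZIP60 (-0.45 to 0.022). Deviations of arrays with the same replicate number correlated at 0.0198 to 0.0322, and each array correlated best with its own number. That is a hint from the data and not the design, which names no batch shared by equal numbers. The main fit used no pairing. With the replicate block, 2 members rose, 5 fell (VNI2 adjusted p 0.0518) and 16 linked genes were called. Signals near the lowest Present signal of an array, 26.3 to 49.2, limit what can be read from weak members, and 3 arrays per genotype limit the precision.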

Other observations

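The 6 members never called Present whose arrays did not overlap between the genotypes are named here after their values were seen, and their signals are bounds rather than levels. BRN1 and ANAC048 read higher on the mutant arrays, and NST2, ANAC080, ANAC094 and ANAC103 read higher on the wild-type arrays. ANAC103, a regulator of the response to unfolded proteins, read 15.2, 4.13 and 10.0 in the mutant and 62.1, 105 and 81.4 in wild type. BRN1, a root cap gene, read 18.9, 57.0 and 62.0 in the mutant and 7.84, 8.05 and 4.02 in wild type.

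SMR5, a cell cycle inhibitor known to be switched on by SOG1, was never called Present and read 243, 404 and 254 in the mutant and 7.19, 16.1 and 57.3 in wild type. It was picked out after its values were seen and was not tested.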
